A study of Mus musculus with 28 samples.

Results

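The Fos and Jun families supply the subunits of AP-1, a transcription factor that binds DNA as a pair of leucine zipper proteins. The 7 genes Fos, Fosb, Fosl1, Fosl2, Jun, Junb and Jund were taken by the gene symbol of the array platform, with every probe set of each gene and without regard to measured values. They are 7 of 18193 genes with a symbol of their own, and their 11 probe sets are 11 of the 45037 tested. Fosl1, Fosl2, Jun and Jund had 2 probe sets each, and Fos, Fosb and Junb had 1.

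Fos proteins cannot pair with one another and bind DNA with a Jun partner, whereas Jun proteins pair with Fos or Jun proteins. Active RAS signals through RAF and MEK to the kinase ERK. ERK drives transcription of Fos through serum response factor with its ETS partners, and phosphorylates and stabilises Fos family proteins. Fosl1, which encodes FRA-1, is a late product of sustained ERK activity and is in turn a target of AP-1. Jun is also activated by the kinase JNK, and Jund is known for holding back proliferation of fibroblasts.

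The cells were NIH3T3, mouse fibroblasts of embryonic origin that divide without limit, and a derived line that the labels call NIH3T3 K-ras and that is called K-ras here. The labels give no allele, promoter or clone for it. Both lines grew in DMEM with 10% newborn calf serum, 4 mM glutamine, penicillin and streptomycin for 18 h, when the medium was changed. Each line was sampled at the change (0 h, 25 mM glucose) and then 24, 48 and 72 h later in medium of either 25 mM or 1 mM glucose. This gave 14 groups of 2 arrays each, 28 in all, and the labels call the 2 arrays biological replicates. The series asked how glucose availability changes gene expression in the 2 lines. Each value is a log2 ratio to the median of the same probe set over the 28 arrays, so a value of 0 is that median and levels of different genes cannot be compared.

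The promoters of Jun and Fos are shown because both are textbook targets of MAP kinase signals; Jun was called in these data and Fos was not. RefSeq's promoter table on GRCm38.p6 held 6 of the 7 genes, and Fosl1 was not matched in it. The last 100 bases before the start of transcription are printed, 5′ to 3′ on the strand of the gene, with motif matches in capitals. Jun lies on the minus strand at chr4:95049036-95052222 and its printed bases at chr4:95052223-95052322. Fos lies on the plus strand at chr12:85473890-85477274 and its printed bases at chr12:85473790-85473889.
Jun: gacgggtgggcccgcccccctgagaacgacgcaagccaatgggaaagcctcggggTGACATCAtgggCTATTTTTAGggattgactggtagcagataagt
Fos: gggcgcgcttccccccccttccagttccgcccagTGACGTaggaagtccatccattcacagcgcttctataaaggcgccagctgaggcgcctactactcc
The 250 bases before each start were searched on both strands for TGANTCA (the AP-1 site), TGACNTCA (the form of that site with 1 more base), TGACGT (the core of the cyclic AMP response element, which can overlap TGACNTCA), the CArG box of serum response factor and the MEF2 box. Jun held TGACATCA from base -45 to -38 and a MEF2 box from base -33 to -24, counted from the start of transcription. Fos held TGACGT from base -66 to -61. The windows of Fosb, Fosl2, Junb and Jund held none of these strings. Over 32851 promoter windows of the same length, 6.75% held TGANTCA, 7.49% TGACNTCA, 6.47% TGACGT, 1.47% the CArG box and 2.92% the MEF2 box. A match describes the letters and not a bound site, and no match says only that these letters are not in this window.

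Some arrays did not match their labels. Il33, an alarmin cytokine, lay between -6.52 and -5.52 on some arrays and between 0.98 and 3.42 on the others, and the keratin Krt14 separated the same arrays in the opposite direction. By these genes 6 arrays looked like the other line. They were NIH3T3 at 1 mM and 24 h (both replicates), NIH3T3 at 1 mM and 48 h (replicate 1), K-ras at 25 mM and 0 h (replicate 1), K-ras at 1 mM and 48 h (replicate 1) and K-ras at 1 mM and 72 h (replicate 1). No array was moved, and results are given with all 28 arrays and without these 6. Only 6 of the 28 arrays were closest to their own replicate over all probe sets, by correlation. The spiked-in control bioC was low (-2.35 to -0.81) on all 8 NIH3T3 arrays at 25 mM and higher (-0.27 to 2.94) on all 8 K-ras arrays at 25 mM, so the line difference at 25 mM and this technical difference cannot be told apart. On K-ras 1 mM 72 h replicate 1 the 5′ minus 3′ difference of Gapdh, a sign of RNA length, was -2.09 against -0.43 to 0.33 on the other 27 arrays. The highest bioC value (2.94) was on replicate 1 of K-ras at 25 mM and 72 h, which also had the widest spread over all probe sets, an interquartile range of 0.65 against 0.26 to 0.45 on the others.

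The members varied to very different degrees. The SD of the log2 ratio over the 28 arrays was 1.50 and 1.34 for the 2 probe sets of Fosl1, above 99.5% and 99.1% of probe sets. It was 0.97 and 0.81 for Jun, 0.81 for Jund 1449117_at, 0.60 for Fos and 0.54 for Junb. Fosl2 had 0.50 (1437247_at) and 0.35 (1422931_at). Fosb, at 0.26, and Jund 1440265_at, at 0.22, varied less than the median probe set, above 47.8% and 32.9% of probe sets. The 2 probe sets of Fosl1 tracked each other over the 28 arrays (r = 0.962), as did those of Jun (r = 0.86). The probe sets of Fosl2 (r = 0.255) and Jund (r = -0.151) did not, so a result of one does not stand for the gene. These and all correlations below describe arrays that share line, time and scaling, and carry no test.

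**Figure D1:**
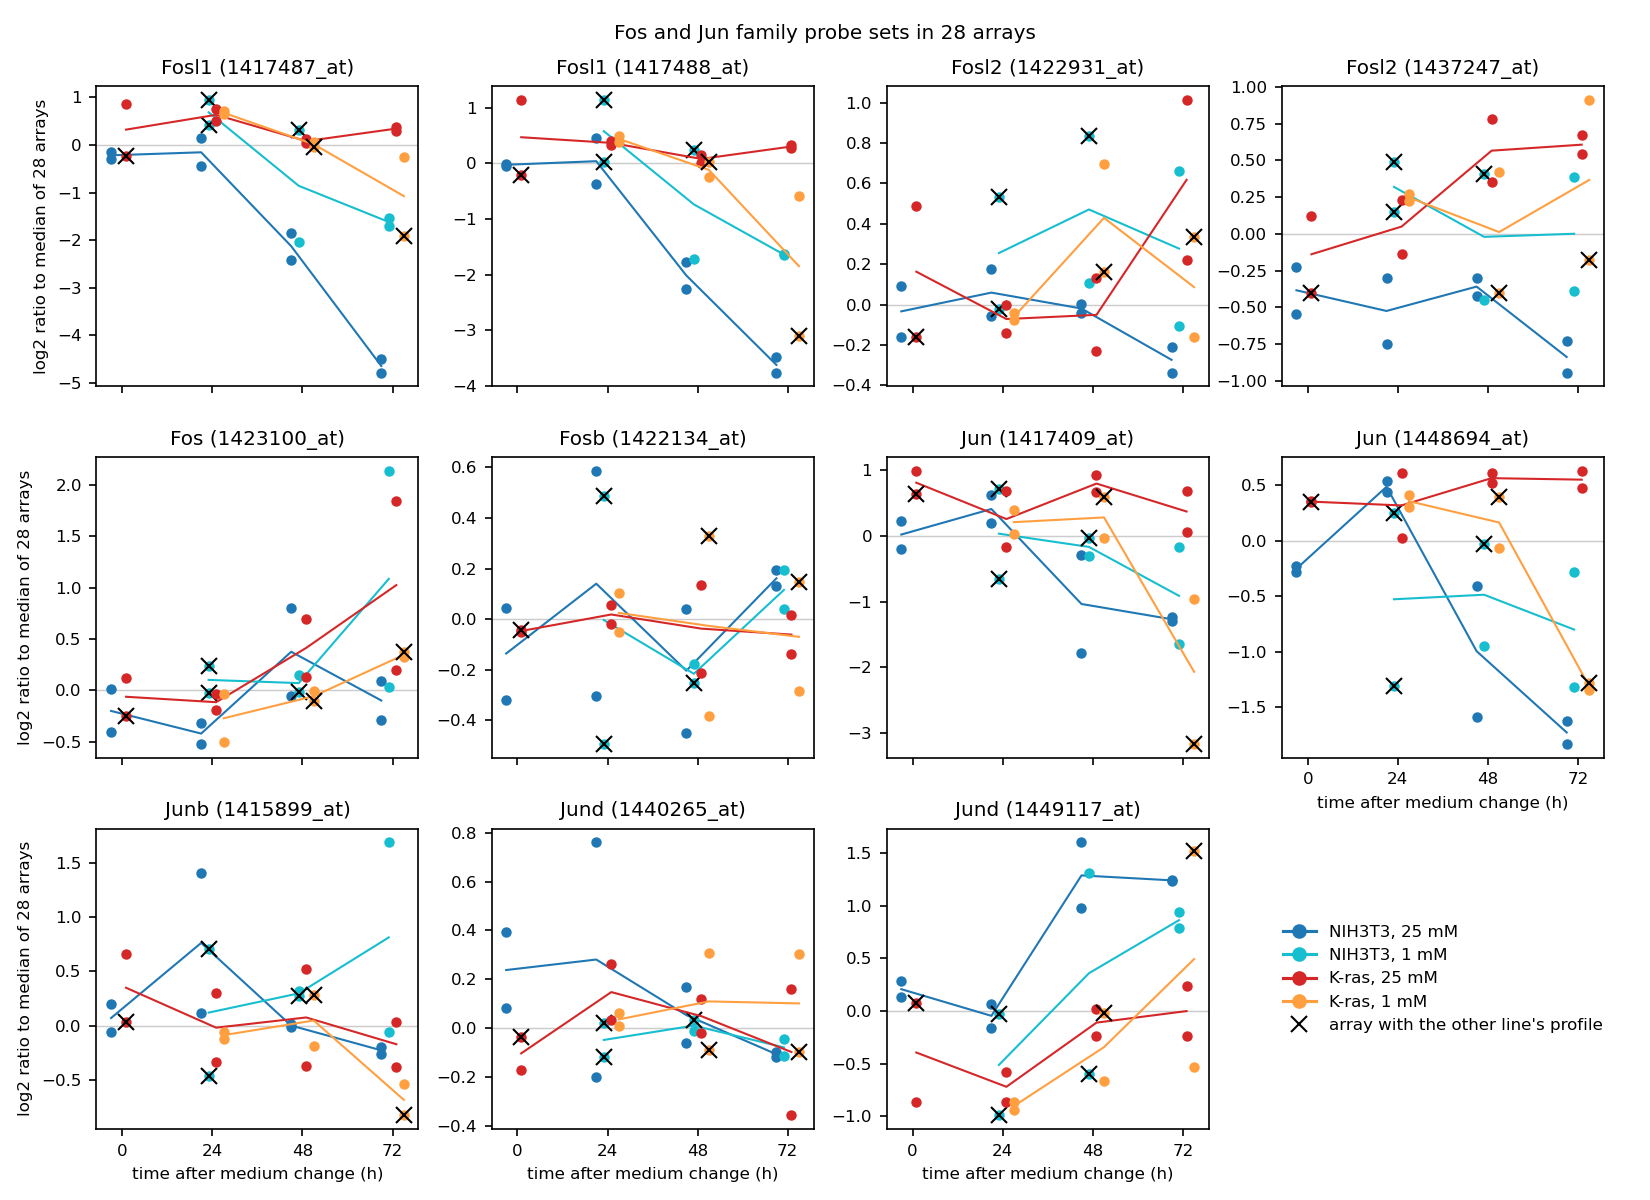
Each panel plots 1 probe set, with time after the medium change in hours against the log2 ratio to its median over 28 arrays; points are arrays, lines join the means of 2 arrays for each line and glucose, points are set slightly apart in time for legibility, and crosses mark the 6 arrays with the other line's profile. At 25 mM and 72 h the 2 Fosl1 panels read between -4.79 and -3.49 in NIH3T3 and between 0.28 and 0.39 in K-ras.

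Fosl1 fell over the time course in NIH3T3 at 25 mM and did not fall detectably in K-ras. On probe set 1417487_at the 2 NIH3T3 arrays read -0.29 and -0.14 at 0 h, 0.14 and -0.45 at 24 h, -2.41 and -1.84 at 48 h, and -4.79 and -4.50 at 72 h. The arrays at 48 h lay below all earlier ones, and those at 72 h below those at 48 h. In K-ras they read -0.22 and 0.87 at 0 h, 0.77 and 0.50 at 24 h, 0.04 and 0.13 at 48 h, and 0.30 and 0.39 at 72 h, all within the range that the line started from. The mean of NIH3T3 went from -0.22 ± 0.11 (SD, n = 2) to -4.64 ± 0.20, and that of K-ras from 0.32 ± 0.77 to 0.34 ± 0.06.

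The difference of NIH3T3 between 72 and 0 h was -4.43 ± 0.57 (log2, standard error) for 1417487_at, with an adjusted p of 0.00141 in limma, a linear model with pooled spread. The second probe set, 1417488_at, gave -3.60 ± 0.65 with an adjusted p of 0.00753. From 24 to 72 h the falls were -4.49 ± 0.57 and -3.67 ± 0.65 (adjusted p = 0.00196 and 0.00888), while 24 against 0 h gave 0.06 on both. No member was called from 0 to 24 h or from 0 to 48 h, where 0.00444% and 0.0333% of all probe sets were, and 0 and 2 of the 11 had an unadjusted p under 0.05. A change was called at an adjusted p under 0.05, adjusted by Benjamini-Hochberg over all 45037 probe sets. Of the 11 member probe sets, 2 were called lower and 0 higher between 72 and 0 h, where 1.59% of all probe sets were called lower, 2.68% higher and 4.27% in either direction. The median of the members was -0.34, and that of all probe sets -0.06. Without any 1 of the 4 arrays compared, 1417487_at remained called 4 of 4 times and 1417488_at 0 of 4 times. Less RNA per cell and fewer cells expressing a gene cannot be told apart in these bulk RNA samples.

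In K-ras the same difference of Fosl1 was 0.02 ± 0.57 (adjusted p = 0.990) and -0.17 ± 0.65 (adjusted p = 0.929). No member was called in limma for K-ras from 0 to 72 h, 0 of 11 had an unadjusted p under 0.05, and 0% of all probe sets were called although 6203 had an unadjusted p under 0.05. The K-ras replicate 1 at 0 h was one of the arrays with the NIH3T3 profile, and its Fosl1 value of -0.22 lay between the NIH3T3 values of -0.29 and -0.14. Without the 6 such arrays K-ras at 0 h has 1 array left, assumed to vary as the other groups do. The K-ras change was then -0.53 ± 0.28 and -0.84 ± 0.29.

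The test of whether the time change differed between the lines gave 4.45 ± 0.80 for 1417487_at and 3.44 ± 0.93 for 1417488_at, which did not pass over all probe sets (adjusted p = 0.218 and 0.357). In that comparison 0.00222% of probe sets, or 1, were called, and 4906 had an unadjusted p under 0.05. With the 6 arrays left out, the values were 3.90 ± 0.36 and 2.76 ± 0.38. They rest on 1 K-ras array at 0 h, and the spread of the 6 arrays had left the fit with them. Of the 8 fits without 1 array, 1417487_at was called in 1, that without K-ras 25 mM 72 h replicate 2 (adjusted p = 0.00946), and 1417488_at in 0.

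Across the 4 times at 25 mM, Fosl1 was higher in K-ras than in NIH3T3 by 2.13 ± 0.28 (adjusted p = 0.00315) and 1.71 ± 0.33 (adjusted p = 0.00648). On 1417487_at the 8 NIH3T3 arrays ran from -4.79 to 0.14 with a median of -1.14, and the 8 K-ras arrays from -0.22 to 0.87 with a median of 0.34. The ranges overlapped. By time, the difference was 0.54 ± 0.57 at 0 h, 0.79 ± 0.57 at 24 h and 2.21 ± 0.57 at 48 h, none of them called (adjusted p = 0.978, 0.582 and 0.278), and 4.99 ± 0.57 at 72 h (adjusted p = 0.00201). At 72 h the second probe set gave 3.93 ± 0.65 (adjusted p = 0.0227). Leaving out each of the 4 arrays in turn kept the call at 72 h in 3 of 4 fits for 1417487_at and in 1 of 4 for 1417488_at. Without NIH3T3 25 mM 72 h replicate 1 no member was called at 72 h, and the adjusted p of 1417487_at was 0.0943. A fit with low or high bioC as a block can estimate that effect from only 2 groups, NIH3T3 at 1 mM and 48 h and at 1 mM and 72 h, which hold both kinds, and 1 of these 4 arrays had the K-ras profile. In it the differences of 1417487_at were 0.87 ± 0.55 on average and 3.73 ± 0.70 at 72 h, and neither was called (adjusted p = 0.955 and 0.944). Of all probe sets, that fit called 0% on average and 0.00222% at 72 h, so the lost calls are not particular to the members.

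Fosl2, whose product FRA-2 is the close relative of FRA-1, was higher in K-ras on 1 of its 2 probe sets. On 1437247_at the 8 NIH3T3 arrays at 25 mM ran from -0.94 to -0.22 with a median of -0.48. The 8 K-ras arrays ran from -0.40 to 0.78 with a median of 0.29. The lowest K-ras value was that of 0 h replicate 1, which had the NIH3T3 profile, and it lay inside the NIH3T3 range. The average difference was 0.80 ± 0.18 (adjusted p = 0.0144), and 0.86 ± 0.14 without the 6 arrays (adjusted p = 0.000757). At 72 h, NIH3T3 read -0.73 and -0.94 and K-ras 0.67 and 0.54. The groups did not overlap, and the difference of 1.44 ± 0.37 missed the threshold (adjusted p = 0.0703). The other probe set, 1422931_at, gave 0.89 ± 0.33 at 72 h (adjusted p = 0.158), where the 2 K-ras arrays read 1.01 and 0.22. The 1.01 was on replicate 1, the array with the highest bioC value and the widest spread.

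Fos, the founding immediate-early gene of the family, was not called in any of the 25 comparisons with all arrays in the fit. At 25 mM the 8 NIH3T3 arrays ran from -0.52 to 0.81 with a median of -0.17, and the 8 K-ras arrays from -0.24 to 1.85 with a median of 0.13. At 72 h K-ras read 1.85 and 0.20 and NIH3T3 -0.29 and 0.09, and the difference of 1.12 ± 0.52 did not pass (adjusted p = 0.255). A single array carried the height of the K-ras mean. It was replicate 1, which had the highest bioC value and the widest spread over all probe sets. In NIH3T3 at 1 mM the mean at 72 h also rested on a single array, with values of 0.04 and 2.13. Fosb, an immediate-early gene with the smallest spread of the Fos genes, ran from -0.49 to 0.59 over all 28 arrays and was not called in any comparison either.

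Jun, the main partner of Fos proteins and a target of JNK, followed Fosl1 in direction with smaller values. On 1448694_at NIH3T3 at 25 mM read -0.22 and -0.28 at 0 h, 0.53 and 0.44 at 24 h, -1.58 and -0.40 at 48 h, and -1.83 and -1.62 at 72 h. In K-ras the 8 arrays stayed between 0.03 and 0.63. The NIH3T3 arrays lay above their 0 h values at 24 h and below them from 48 h on. K-ras at 72 h read 0.63 and 0.47, clear of NIH3T3.

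The fall of Jun in NIH3T3 from 24 to 72 h was called on 1448694_at (-2.21 ± 0.44, adjusted p = 0.0135) and not on 1417409_at (-1.68 ± 0.63, adjusted p = 0.139). For that comparison 3 of 11 member probe sets were called lower, Fosl1 being the others, against 1.57% of all probe sets lower, 2.5% higher and 4.07% in either direction. Between 72 and 0 h neither was called (-1.47 ± 0.44, adjusted p = 0.07, and -1.29 ± 0.63, adjusted p = 0.295). Without the 6 arrays with the other line's profile, 1448694_at passed (adjusted p = 0.0249) with the same difference, none of those arrays being among the 4 compared.

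Against NIH3T3, Jun was higher in K-ras by 1.07 ± 0.22 on average over the 4 times on 1448694_at (adjusted p = 0.00865) and by 2.27 ± 0.44 at 72 h (adjusted p = 0.0355). On 1417409_at the average difference was 1.03 ± 0.32, which was not called with all arrays and was called without the 6 (1.07 ± 0.27, adjusted p = 0.0147). The call at 72 h held without 1 of the 4 single arrays and was lost without the other 3. With bioC as a block the average difference of 1448694_at was 0.09 ± 0.43 (adjusted p = 0.987), and at 72 h it was 1.30 ± 0.55 (adjusted p = 0.944). That fit called 0% and 0.00222% of all probe sets.

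Jund, the Jun gene that is best known as a brake on growth, went the other way on 1 of its 2 probe sets. On 1449117_at NIH3T3 at 25 mM read 0.13 and 0.28 at 0 h, -0.16 and 0.07 at 24 h, 1.60 and 0.97 at 48 h, and 1.25 and 1.24 at 72 h. The K-ras arrays ran from -0.86 to 0.24 with a median of -0.24. The average difference, K-ras minus NIH3T3, was -0.98 ± 0.29 (adjusted p = 0.0438). It stayed called in 3 of 16 fits without 1 array, and was -1.10 ± 0.12 without the 6 arrays (adjusted p = 3.24e-05). With bioC as a block it was -0.10 ± 0.61 (adjusted p = 0.991), where 0% of all probe sets were called. The NIH3T3 rise of 1.04 ± 0.57 from 0 to 72 h was not called (adjusted p = 0.370), but was without the 6 arrays (adjusted p = 0.0152). The other probe set, 1440265_at, ran from -0.36 to 0.76 over all arrays and was not called in any comparison.

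Junb, a Jun protein that can oppose Jun at AP-1 sites, was not called in any comparison. Its 8 NIH3T3 arrays at 25 mM ran from -0.26 to 1.41 with a median of 0.00, and its K-ras arrays from -0.38 to 0.66 with a median of 0.04. The values overlapped almost wholly, and single arrays stood high, at 1.41 (NIH3T3 25 mM 24 h replicate 1) and 1.69 (NIH3T3 1 mM 72 h replicate 2).

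For the line difference averaged over the 4 times, 5 of the 11 member probe sets were called, 4 higher and 1 lower in K-ras, against 8.17% of all probe sets in either direction, 4.16% higher and 4.01% lower. The median of the members was 0.40, and that of all probe sets -0.03. Of the marker genes of cell types, 1 of 10 for fibroblasts (Pdgfra) was higher in K-ras and 3 of 6 for epithelium (Epcam, Krt14 and Cdh1) were lower. Of the leukocyte markers 2 of 6 were called, 1 in each direction (Cd68 and Lyz2), and of the endothelial markers 1 of 5 was higher (Tie1); their part in the result was not tested. At 72 h 3 of 11 were called, all higher, against 0.235% of all probe sets higher, 0.353% lower and 0.588% in either direction. The median of the members there was 1.12, and that of all probe sets 0.05. At 0, 24 and 48 h no member was called, where 0.00222%, 0.0111% and 0.00888% of probe sets were. Unadjusted p-values under 0.05 were held by 0, 0 and 6 of the 11. At 1 mM no member was called between the lines at 24, 48 or 72 h, where 0%, 0% and 0.0333% of all probe sets were. Unadjusted p-values under 0.05 were held there by 0, 0 and 1 of 11, in groups that hold 5 of the 6 arrays with the other line's profile.

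**Figure D2:**
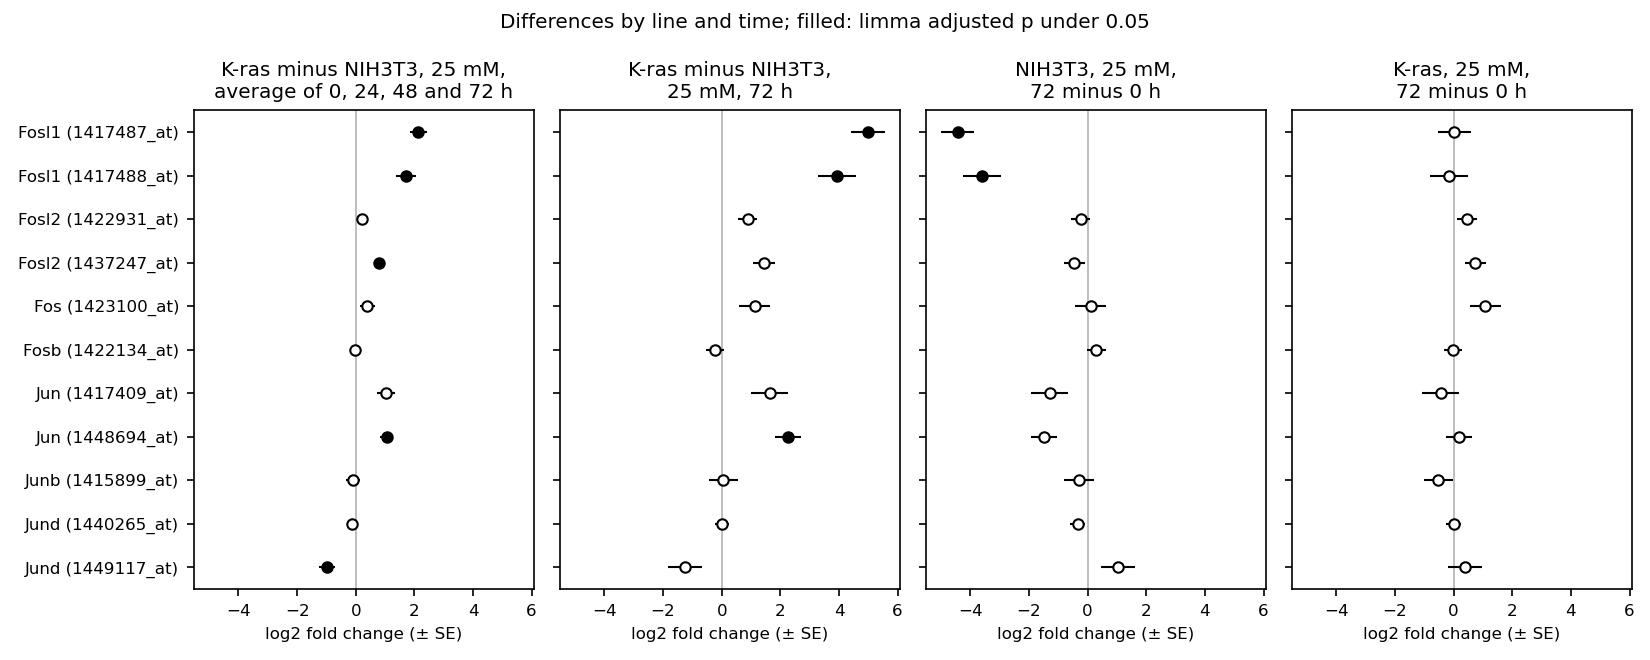
Differences on the log2 scale with standard errors for the 11 probe sets, from limma on 28 arrays in groups of 2; filled points passed an adjusted p of 0.05. Fosl1 stands at 4.99 and 3.93 between the lines at 72 h and at -4.43 and -3.60 over time in NIH3T3, and no point is filled for K-ras over time.

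No member passed the threshold for glucose. Averaged over both lines and 24, 48 and 72 h, the difference of 1 minus 25 mM ranged from -0.36 to 0.62 over the 11 probe sets. No member was called by limma, 1 of 11 had an unadjusted p under 0.05, and 0% of all probe sets were called, with 2243 at an unadjusted p under 0.05. The arrays at 1 mM include 5 with the other line's profile. Without the 6, NIH3T3 at 24 h had no array left at 1 mM, and some other groups held a lone array. The average over the other 5 pairs of groups then ranged from -0.33 to 0.51 over the 11 probe sets.

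At 72 h Fosl1 read higher at low glucose in NIH3T3. On 1417487_at the arrays at 1 mM read -1.53 and -1.71 against -4.79 and -4.50 at 25 mM, and on 1417488_at -1.62 and -1.66 against -3.49 and -3.77. The arrays did not overlap on either probe set, and all 4 had the profile of their own line. The differences were 3.03 ± 0.57 and 1.99 ± 0.65, and with all arrays in the fit neither was called (adjusted p = 0.181 and 0.574). When the 6 arrays were left out, and their spread with them, the same differences were called (3.03 ± 0.23, adjusted p = 0.000139, and 1.99 ± 0.24, adjusted p = 0.0125). Of all probe sets 0.00666% were called with all arrays and 0.0466% without the 6. Both glucose groups at 72 h lay below the NIH3T3 values at 0 h.

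The other members moved less in NIH3T3 at 72 h. Fos differed by 1.18 ± 0.52 (adjusted p = 0.718) and Junb by 1.04 ± 0.50 (adjusted p = 0.773), each through replicate 2 at 1 mM alone. Jun 1448694_at read -0.28 and -1.32 at 1 mM against -1.83 and -1.62, a difference of 0.93 ± 0.44 that was not called. The median of the 11 probe sets was 0.84, and that of all probe sets 0.06. In this comparison 4 of 11 had an unadjusted p under 0.05, beside 2948 of all 45037. The fibroblast marker list, 10 genes such as Col1a1 and Pdgfra, had a median difference of -0.67 and 0 called, and their part in the result was not tested.

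In K-ras at 72 h Jun read lower at low glucose on both probe sets, and the median of the 11 probe sets was -0.53, that of all probe sets 0.00. Jun 1448694_at read -1.28 and -1.34 at 1 mM against 0.63 and 0.47 at 25 mM, and Jun 1417409_at -3.17 and -0.97 against 0.68 and 0.06. The arrays did not overlap on either. The differences were -1.86 ± 0.44 and -2.44 ± 0.63, not called (adjusted p = 0.0899 and 0.111), where 0.0488% of all probe sets were. Replicate 1 at 1 mM is the array with the NIH3T3 profile and the large 5′ minus 3′ difference, and it holds the -3.17. Without the 6 arrays K-ras at 1 mM has 1 array left at 72 h, assumed to vary as the other groups do. The difference of Jun 1448694_at was then -1.89 ± 0.44 and called (adjusted p = 0.0378, 2.73% of all probe sets called), and that of 1417409_at was -1.34 ± 0.61 and not called (adjusted p = 0.306). The 10 fibroblast markers had a median difference of -1.10 in K-ras at 72 h with 0 called, and their part in the result was not tested.

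Fosl1 in K-ras at 72 h rested more on that array. On 1417487_at the arrays at 1 mM read -1.90 (replicate 1) and -0.24 against 0.30 and 0.39, a difference of -1.42 ± 0.57 (adjusted p = 0.278). On 1417488_at they read -3.11 (replicate 1) and -0.59 against 0.28 and 0.34, a difference of -2.16 ± 0.65 (adjusted p = 0.169). Replicate 1 stood closer to the NIH3T3 arrays at 1 mM and 72 h than to its own replicate on 1417487_at. Leaving out the 6 arrays gave differences of -0.59 ± 0.28 and -0.90 ± 0.29, not called (adjusted p = 0.331 and 0.140).

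The test of whether glucose acted differently in the lines at 72 h was added once the data were in view. It gave -4.45 ± 0.80 and -4.14 ± 0.93 for Fosl1 (adjusted p = 0.163 and 0.185) and -2.80 and -2.78 for Jun (adjusted p = 0.285 and 0.185). No member was called and 0% of all probe sets were, with 7 of 11 and 5000 of 45037 at an unadjusted p under 0.05. Without the 6 arrays the values rest on 1 K-ras array at 1 mM and 72 h. They were then -3.62 ± 0.36 and -2.88 ± 0.38 for Fosl1 and -1.70 and -2.82 for Jun. Of the 8 fits without 1 array, Fosl1 was called on both probe sets in 2, those without K-ras 25 mM 72 h replicate 2 and without K-ras 1 mM 72 h replicate 2. Its lowest adjusted p was 0.0095 on 1417487_at and 0.0175 on 1417488_at. The first of these fits also called Fos (adjusted p = 0.034) and Jun 1448694_at (adjusted p = 0.026). At 24 and 48 h no member was called for glucose in either line, where 0.00222% of all probe sets were called in NIH3T3 at 24 h and 0% in the other 3 comparisons. An unadjusted p under 0.05 was held by 2 and 1 of 11 in NIH3T3 at 24 and 48 h and by 0 of 11 in K-ras at both.

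**Figure D3:**
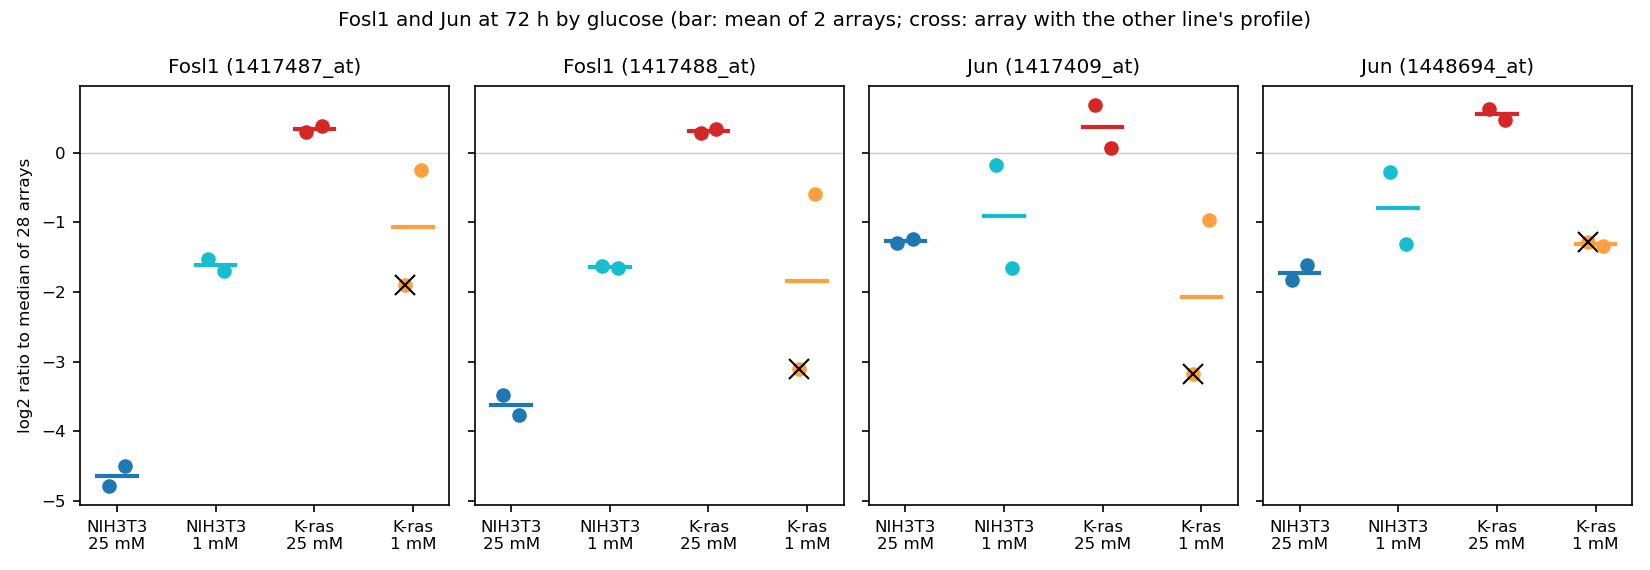
The log2 ratio of both probe sets of Fosl1 and Jun at 72 h by line and glucose; points are arrays, bars are means of 2, and the cross marks the array with the other line's profile. Fosl1 lies higher at 1 mM than at 25 mM in NIH3T3 (3.03 and 1.99 apart in the mean) and lower in K-ras (-1.42 and -2.16).

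Jun and Fosl2 1437247_at tracked Fosl1 over the arrays, and Jund 1449117_at ran opposite to it. Fosl1 1417487_at correlated with Jun at 0.663 and 0.77, with Fosl2 1437247_at at 0.603 and with Jund 1449117_at at -0.854 over the 28 arrays. With Fos the correlation was -0.0988 and with Junb 0.126. The 8 arrays below -1 for Fosl1 read 0.79 or more for Jund 1449117_at, and the other 20 read 0.28 or less. Of these 8, 7 were NIH3T3 at 48 or 72 h, so the points are not independent.

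**Figure D4:**
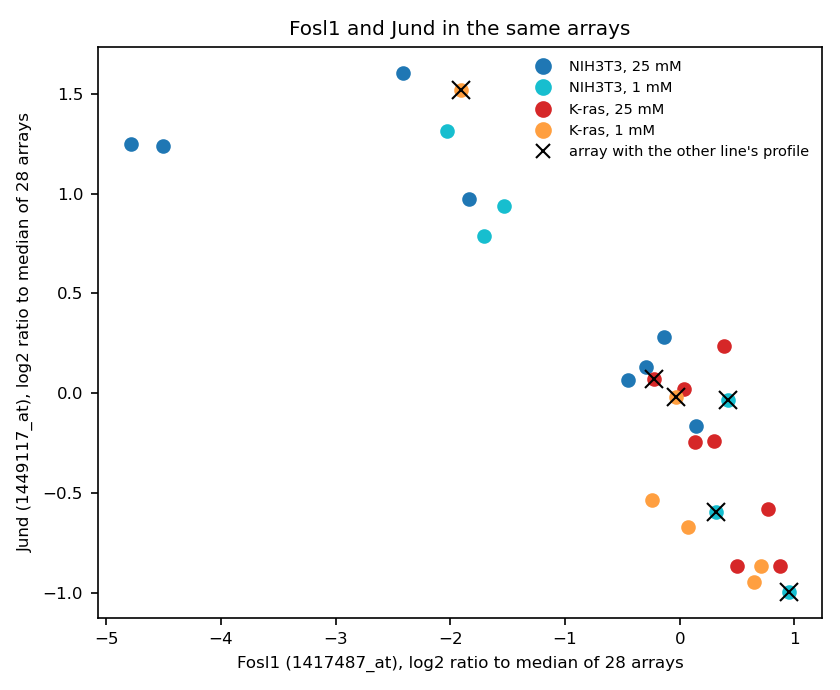
The log2 ratio of Fosl1 (1417487_at) against that of Jund (1449117_at) on 28 arrays, coloured by line and glucose, with crosses on the 6 arrays with the other line's profile. The arrays with low Fosl1 have high Jund (r = -0.854), and the group at the top left holds NIH3T3 at 48 and 72 h and K-ras 1 mM 72 h replicate 1.

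The genes whose pattern over the 28 arrays was most like that of each called member were taken by Pearson correlation, 5 for each. For Fosl1 these were Noct (0.963), Ruvbl2 (0.95), Phlda1 (0.949), Dusp6 (0.939), a phosphatase that turns ERK off, and Ereg (0.931), a ligand of the EGF receptor. For Jun 1417409_at they were Gja1 (0.959), a gap junction connexin, Tpm3 (0.937), Ube2s (0.915), Mbd3 (0.908) and Bora (0.904). For Fosl2 1437247_at they were Runx1 (0.884), Spring1 (0.874), Pigh (0.868), Slc22a23 (0.864) and Map2k1 (0.859), which encodes the ERK kinase MEK1. For Jund 1449117_at they were Ndrg4 (0.961), Mturn (0.947), Kat2b (0.944), Myorg (0.941) and Sec16b (0.938).

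Other genes that ERK is known to induce were read from a list of 26, of which 24 were measured, with 1 probe set a gene. Averaged over the 4 times at 25 mM, 9 of 24 were higher in K-ras and 2 lower, with a median of 0.86 (5.33% and 5.22% of 18193 genes, median -0.04). The largest were Egr3, an early growth response factor (3.32 ± 0.55, adjusted p = 0.00492, with -0.24 on its other probe set), and Dusp1, a phosphatase of MAP kinases, which was lower (-2.65 ± 0.49, adjusted p = 0.00585). Ereg was higher by 1.71 ± 0.34, Dusp4, a nuclear ERK phosphatase, by 1.67 ± 0.35 and Phlda1 by 1.66 ± 0.30. Spry4, an inhibitor of receptor signals to RAS, was higher by 1.68 ± 0.36, although its 4 probe sets ranged down to 0.11.

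At 72 h 5 of the 24 were higher in K-ras and none lower (0.313% and 0.407% of genes), with a median of 1.29 against 0.03. These were Dusp4 (3.76 ± 0.70), Ereg (3.32 ± 0.68), Phlda1 (3.22 ± 0.61), Etv5 (2.92 ± 0.64), an ETS factor downstream of ERK, and Dusp6 (1.94 ± 0.35). Their adjusted p ranged from 0.0274 to 0.0486. In NIH3T3 from 0 to 72 h 5 of 24 fell and none rose (1.74% and 3.49% of genes), with a median of -0.79 against -0.07. Hbegf, an EGF receptor ligand, fell most (-4.52 ± 0.91), and Ereg (-3.54 ± 0.68), Dusp5 (-3.11 ± 0.43), Epha2 (-2.72 ± 0.40) and Phlda1 (-2.41 ± 0.61) fell with it. The fibroblast markers had a median of 1.32 in the same comparison with 1 of 10 called, Pdgfra, higher at 72 h, and their part was not tested. None of the 24 was called over time in K-ras or for glucose on average, where 0% of genes were. For glucose at 72 h none was called in NIH3T3 (0% of genes higher and 0.011% lower) or in K-ras (0.011% and 0.055%). The median for K-ras from 0 to 72 h was -0.21 against 0.04 over all genes. For glucose at 72 h it was 0.91 against 0.05 in NIH3T3 and -0.38 against 0.00 in K-ras.

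**Figure D5:**
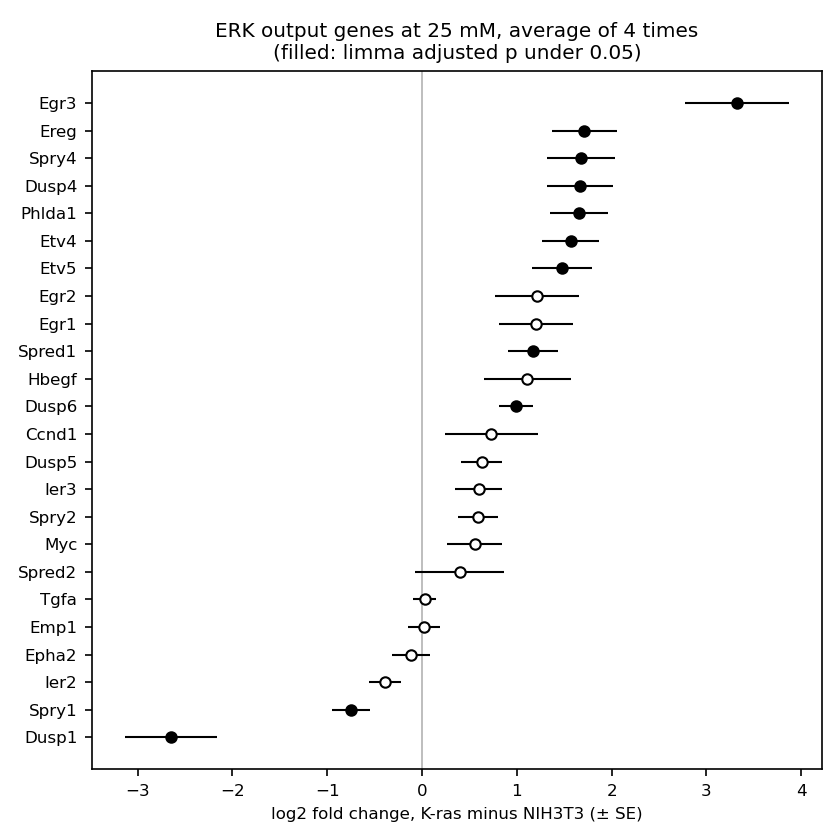
The difference between K-ras and NIH3T3 at 25 mM averaged over 4 times for 24 genes that ERK is known to induce, on the log2 scale with standard errors; filled points passed an adjusted p of 0.05. Egr3 (3.32) and Dusp1 (-2.65) are the ends, and 9 filled points lie to the right and 2 to the left.

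Proteins that pair with AP-1 subunits were read from a list of 12, with 11 measured. On average over the 4 times 1 was higher in K-ras and 1 lower (5.33% and 5.22% of all genes), with a median of -0.10 against -0.04. They were Atf2, a partner of Jun, at 0.44 ± 0.13 (its 5 probe sets ranged from -0.08 to 0.53), and the small Maf protein gene Mafk at -0.45 ± 0.13. At 72 h Maff, another small Maf gene, was higher in K-ras by 2.17 ± 0.40 (adjusted p = 0.0299), 1 of 11 against 0.313% of all genes. In NIH3T3 from 0 to 72 h it fell by 2.02 on the log2 scale (adjusted p = 0.0113), 1 of 11 against 1.74% of all genes. Of 22 genes of the RAS to ERK and JNK cascades and of serum response factor, 14 were measured and 0 were called in these 3 comparisons, whose shares over all genes are those given above.

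Genes known as AP-1 targets were read from a list of 18, with 15 measured. On average over the 4 times 2 of 15 were higher in K-ras and 1 lower (5.33% and 5.22% of all genes), with a median of 0.41 against -0.04. The higher ones were the cytokines Il6 (1.57 ± 0.35, adjusted p = 0.0116) and Lif (1.08 ± 0.25, adjusted p = 0.0149, with 0.08 on its other probe set). Ezr, which links actin to the membrane, was lower (-1.10 ± 0.28, adjusted p = 0.0217). From 0 to 72 h in NIH3T3, 3 of 15 fell and none rose (1.74% and 3.49% of all genes), with a median of -0.24 against -0.07. They were Timp1, an inhibitor of matrix proteases (-3.37 ± 0.61), Ptgs2, the inducible cyclooxygenase (-2.92 ± 0.68), and Plaur, the urokinase receptor (-2.68 ± 0.55), with adjusted p from 0.00758 to 0.0234. At 72 h between the lines none of the 15 was called (0.313% of all genes higher and 0.407% lower), with a median of 0.76 against 0.03.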

How the data were processed

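Affymetrix expression arrays of 28 cultures, 1 per array, were used. The RNA was prepared with Trizol and an RNeasy kit and labelled with biotin, per the labels' protocols. RMA is named per the submitters' processing notes. The deposited table holds log2 values, and for each of its 45101 probe sets the linear values had a median of 1 (within 0.001). A value is therefore a log2 ratio to that probe set's median on 28 arrays. Signal over background is unknown, and presence of a gene or of a cell type's markers cannot be read.

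Groups came from the labels. limma 3.58.1 in R 4.3.3 (lmFit, eBayes) was fitted with 1 coefficient for each of 14 groups on 45037 probe sets, after leaving out 64 control probe sets, with 14 residual degrees of freedom and no filter. p-values were adjusted by Benjamini-Hochberg within each of 25 comparisons. The fit was tested on simulated data. Symbols came from the platform annotation (34945 probe sets with 1 symbol, 932 with several, 9160 with none). Lists used the probe set with the largest SD for each gene.

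Members, lists and comparisons were chosen with earlier results of these data known, and the test of glucose between lines at 72 h was added after the values were seen. The rule for named genes took all members, the 5 genes most correlated with a called member's probe set of largest SD (clone and predicted-gene symbols passed over), and up to 6 called genes of each list with the largest change. Over 91 pairs of groups the correlation of the deviations of same-numbered arrays ran from -0.619 to 0.631. The median was -0.0234 and 23 were above 0.1, and the numbers were not taken as pairs. Where 1 array of a group had the other line's profile, its deviation also holds the line difference. These correlations therefore cannot decide whether same-numbered arrays varied together. Figures were drawn with matplotlib 3.10.9 in Python 3.11.15.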

Additional observations from a re-analysis of the deposited data

How the results depend on the processing

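Of 562 values of single probe sets recomputed in other settings, 514 kept their direction and side of the threshold. Another 12 lost a call, 20 gained one, 16 changed sign without a call in either fit, and no called value changed sign. Most of the 562 were not called with all arrays, so the 514 does not measure how well calls held. Calls rose over all probe sets without the 6 arrays that have the other line's profile. The members called were 5 for the lines at 72 h, beside 6.46% of all probe sets against 0.588% with all arrays. For NIH3T3 from 0 to 72 h they were 4, beside 7.96% against 4.27%. For glucose in NIH3T3 at 72 h they were 2, beside 0.0466% against 0.00666%. The difference of the lines in the time change and glucose in K-ras at 72 h then rest on a group with 1 array. With bioC as a block 0 were called for the lines on average and 0 at 72 h, beside 0% and 0.00222% of all probe sets. Quantile normalisation left 1 for the lines at 72 h. With 1 probe set a gene, 1 of 7 was called for the lines at 72 h and 1 of 7 for NIH3T3 from 0 to 72 h. With only the arrays compared in the fit, 5 were called for NIH3T3 from 0 to 72 h. A filter at the median SD, which kept 9 of 11, moved no count of calls by over 1.5 times. Shares over all probe sets are not given for quantile normalisation and the settings named after it. Their counts therefore do not single out the members.

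Leaving out 1 array at a time, the members called ranged from 3 to 6 for the lines on average (3 without K-ras 25 mM 0 h replicate 2) and from 0 (without NIH3T3 25 mM 72 h replicate 1) to 6 (without K-ras 25 mM 72 h replicate 2) at 72 h, with 1 without NIH3T3 replicate 2 or K-ras replicate 1 at that time. They numbered 1 in every such fit for NIH3T3 from 0 to 72 h, and ranged from 0 to 1 for K-ras from 0 to 72 h and for the difference between the lines. For glucose they were 0 in NIH3T3 at 72 h, 0 to 2 in K-ras at 72 h (2 without replicate 2 at 25 mM or at 1 mM) and 0 on average. The 1 for K-ras over time and for the difference between the lines came without K-ras 25 mM 72 h replicate 2. A lone array is assumed to vary as the other groups do. Without K-ras 25 mM 72 h replicate 2 the lone array is replicate 1, which had the highest bioC value and the widest spread. The shares of all probe sets called in the fits without 1 array are not given here. With the replicate number as a block (replicate block), the calls were 5 for the lines on average, 2 at 72 h and 2 for NIH3T3 from 0 to 72 h. Beside them 7.62%, 0.182% and 3.74% of all probe sets were called. The other comparisons had 0, beside at most 0.00222% of all probe sets. The pairing thus moved no count of members by over 1.5 times. The call of Jun 1448694_at at 72 h was lost under the replicate block (adjusted p = 0.0532). With 2 arrays a group the number of arrays limits the precision, and without levels no value can be set against background.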
